A study of Homo sapiens with 15 samples.

Results

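The MAPK feedback genes described here are 10 named genes linked to feedback on signalling through RAS, RAF, MEK or the mitogen-activated protein kinases (MAPKs). The 10 are DUSP1, DUSP4, DUSP5, DUSP6 and DUSP10, SPRY2 and SPRY4, SPRED1 and SPRED2, and PHLDA1. They were taken by name, with all probes that the array annotation gives to them in the deposited signal table, and no threshold on a measured value was applied. The names were chosen with earlier results of these data known. Counts of called members set beside the share of all genes are therefore a description and not a test. Of the 10 genes 9 had an annotated probe, with 11 probes in all out of 48107, and SPRY4 and PHLDA1 had 2 probes each. DUSP4 was not analysed here. All 11 probes passed the detection filter (detection p under 0.05 on at least 3 of 15 arrays), and the 9 genes were tested among 12302.

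RNA of MDA-MB-436, a line from a human breast cancer without working BRCA1, was measured on 15 Illumina HumanHT-12 bead arrays after 7 days of treatment. The combination group received 100 nM AG014699 together with LY294002, a second group received LY294002 alone, and the AG014699 series ran over DMSO, 10 nM and 100 nM, with 3 arrays in each of the 5 groups. AG014699 (rucaparib) blocks PARP1, an enzyme of DNA strand break repair, and LY294002 blocks phosphoinositide 3-kinase (PI3K); the concentration of LY294002 is not given in the sources used here. All groups are 1 cell line grown in culture, and every AG014699 and LY294002 group was set against the same DMSO arrays, so those comparisons share their controls. The labels call the arrays triplicates without stating separate cultures, so the p-values reflect only how far these arrays vary, which may be technical variation. Precision is limited by having 3 arrays a group.

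MAPK cascades carry growth factor and stress signals through successive kinases to ERK, JNK and p38, and active ERK drives transcription of genes that shut it off again. The dual-specificity phosphatases (DUSPs) of this set remove the phosphates that activate MAPKs, the Sprouty (SPRY) and SPRED proteins act upstream at the receptor, RAS and RAF steps, and PHLDA1 is a pleckstrin homology domain protein whose transcript rises with growth factor signalling and stress. Because many of these transcripts turn over quickly and follow ERK activity, they are widely read as a transcriptional readout of the pathway. Phosphorylated kinases and protein levels were not measured in these arrays.

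The labelled cell line was checked first. VIM, CD44, CAV1 and AXL, which mark mesenchymal breast cancer lines, were detected on all 15 arrays, while SPARC was detected on 2. ESR1, the oestrogen receptor, was detected on 3 arrays and PECAM1, an endothelial marker, on 2. FOXA1, a luminal factor, and CD14, a monocyte marker, were detected on all 15 arrays, and ITGAM, a myeloid integrin, on 8; no level was set against a luminal or myeloid sample. PGR, GATA3, PTPRC, CD3E, VWF, CDH5 and KDR had no annotated probe here.

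The promoters of 4 genes whose transcripts were called in the same direction in several comparisons are shown so that they can be read beside the levels: DUSP1, DUSP6, SPRY4 and PHLDA1. DUSP5 was also called higher in several comparisons, but the sources used here held no promoter window for it. Each RefSeq window (GRCh38.p14) runs from 250 bases before to 50 bases after an annotated start, 5′ to 3′ along the gene, and all 4 genes lie on the minus strand. The windows are chr5:172771146-172771445 for DUSP1, chr12:89352452-89352751 for DUSP6, chr5:142324198-142324497 for SPRY4 and chr12:76031727-76032026 for PHLDA1. Capitals mark exact matches to any of 8 motifs.
DUSP1: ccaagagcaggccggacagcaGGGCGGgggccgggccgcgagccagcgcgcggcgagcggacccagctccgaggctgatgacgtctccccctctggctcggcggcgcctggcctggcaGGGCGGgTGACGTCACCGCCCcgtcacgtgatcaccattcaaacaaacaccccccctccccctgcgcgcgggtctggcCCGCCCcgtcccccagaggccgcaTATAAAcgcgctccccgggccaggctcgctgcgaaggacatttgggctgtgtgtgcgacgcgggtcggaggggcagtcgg
DUSP6: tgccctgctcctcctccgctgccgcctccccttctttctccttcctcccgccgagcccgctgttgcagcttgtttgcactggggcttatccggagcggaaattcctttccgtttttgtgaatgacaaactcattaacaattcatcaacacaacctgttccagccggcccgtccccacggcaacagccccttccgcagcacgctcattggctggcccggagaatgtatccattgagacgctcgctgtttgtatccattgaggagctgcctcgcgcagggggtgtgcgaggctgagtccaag
SPRY4: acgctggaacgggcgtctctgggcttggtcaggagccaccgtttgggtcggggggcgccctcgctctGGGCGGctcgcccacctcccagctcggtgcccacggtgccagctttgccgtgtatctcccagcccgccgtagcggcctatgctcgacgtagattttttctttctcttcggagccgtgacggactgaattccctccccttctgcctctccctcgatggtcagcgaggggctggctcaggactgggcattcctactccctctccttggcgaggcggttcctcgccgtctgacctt
PHLDA1: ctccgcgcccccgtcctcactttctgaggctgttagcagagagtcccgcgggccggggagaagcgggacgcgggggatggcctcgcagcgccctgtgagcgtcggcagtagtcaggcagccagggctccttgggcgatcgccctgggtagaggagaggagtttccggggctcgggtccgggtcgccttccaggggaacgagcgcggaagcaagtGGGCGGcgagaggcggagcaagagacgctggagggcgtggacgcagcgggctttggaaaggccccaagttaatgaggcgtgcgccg

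The motifs searched were AP-1 (TGACTCA), the cyclic AMP response element or CRE (TGACGTCA), the EGR1 site (GCGGGGGCG or GCGTGGGCG), ETS (CCGGAAG), FOXO (TGTTTAC), the GC box (GGGCGG) and the CArG box on both strands, and the TATA box (TATAAA) on the strand of the gene. The DUSP1 window held a CRE from -125 to -118 and a TATA box from -30 to -25 relative to the start. It also held 4 GC boxes that begin at -229, -132, -117 and -54, of which the one at -117 directly abuts the CRE. Among 34796 distinct promoter windows 1.84% held a CRE, 7.37% a TATA box and 44.9% a GC box, so the CRE is the least common of these letters in DUSP1. The SPRY4 window held 1 GC box at -183 to -178 and the PHLDA1 window 1 GC box at -36 to -31, and the DUSP6 window held none of the letters searched. AP-1 letters occurred in 4.96% of windows, the EGR1 site in 5.76%, ETS in 10.2%, FOXO in 3.42% and the CArG box in 1.3%, and none of these was in the 4 windows shown. Elsewhere among the 12 windows found for 8 of the genes, SPRY2 had an EGR1 site at -41 to -33, which overlaps a GC box at -42 to -37, and SPRED2 an AP-1 match at -6 to 1 with a TATA box at -31 to -26, each in 1 of its windows. A match describes letters, and the absence of one says only that these letters are not in this window. The GC content was 73.3% in DUSP1, 58.3% in DUSP6, 65% in SPRY4 and 69.3% in PHLDA1, against a median of 58.7% over all windows.

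Levels below are normalized log2 signals, and a difference of 1 is a doubling of the background-corrected signal plus an offset of 16, which understates the fold of dim probes. A gene was called when the Benjamini-Hochberg adjusted p over all 12302 genes was under 0.05 in the limma model of all 15 arrays. At 10 nM AG014699 against DMSO, 3 of the 9 measured genes rose (DUSP1, DUSP6 and PHLDA1) and 0 fell, where 2.37% of all genes were called in either direction. At 100 nM against DMSO, 5 rose (these and DUSP5 and SPRY4) and 0 fell, against 21.5% of all genes. With LY294002 alone against DMSO, only DUSP1 rose and 0 fell, against 1.12% of all genes. In the combination against DMSO, the same 5 genes as at 100 nM rose and 0 fell, against 19.9% of all genes.

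The arrays of the 2 groups did not overlap for 4 of the 9 genes at 10 nM, 5 at 100 nM, 1 with LY294002 and 5 in the combination, each against DMSO, where 20.8%, 36%, 18.1% and 40.1% of all genes did not overlap. The median change of the 9 genes was 0.24 log2 units at 10 nM, 0.59 at 100 nM, 0.05 with LY294002 and 0.72 in the combination, each against DMSO. Over all genes the medians were -0.01, -0.03, -0.01 and -0.02 in the same order. Calls in the higher direction alone made up 1.74% of all genes at 10 nM, 10.7% at 100 nM, 0.512% with LY294002 and 10.4% in the combination. The 4 members that never passed against DMSO were DUSP10, SPRY2, SPRED1 and SPRED2. In RNA from bulk cultures, more transcript per cell and a larger share of cells that carry it cannot be told apart.

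**Figure D1:**
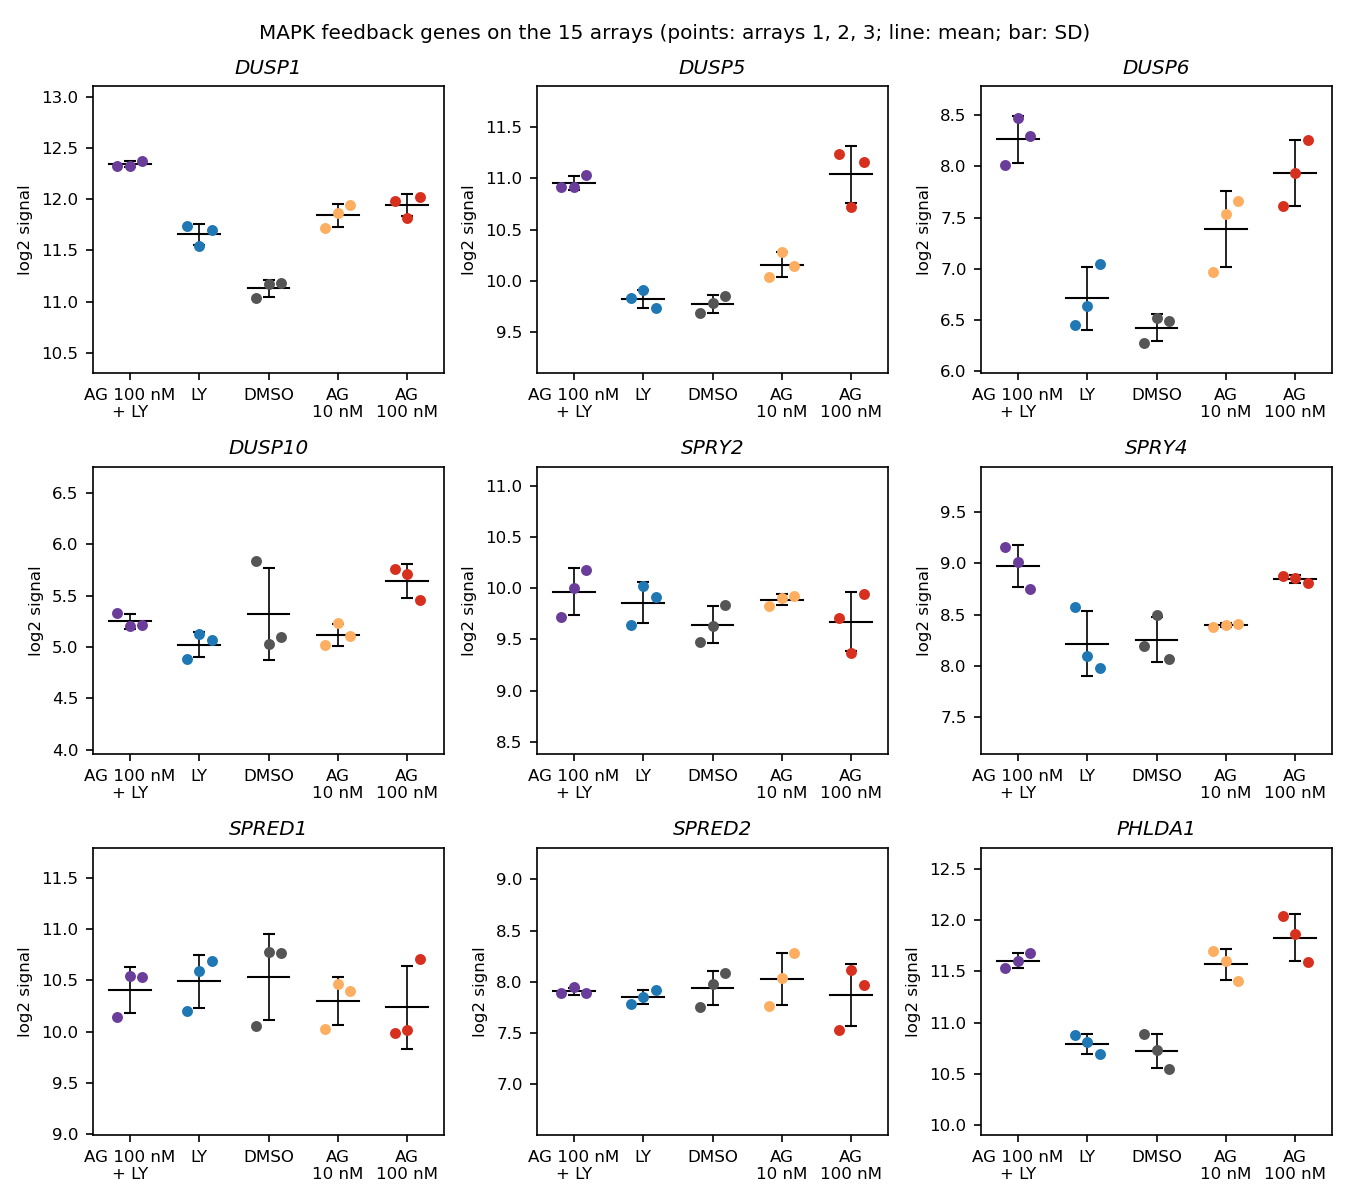
Normalized log2 signal of the 9 measured genes on each array (y axis, all panels spanning the same number of log2 units) by treatment group (x axis); points are arrays 1 to 3, horizontal lines the mean and vertical bars the SD. DUSP1, DUSP5, DUSP6, SPRY4 and PHLDA1 stand higher at 100 nM AG014699 and in the combination than on the DMSO arrays, with no overlap, while the groups overlap for SPRED1 and SPRED2.

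DUSP1 (chromosome 5, 172768096 to 172771195, GRCh38.p14), a nuclear phosphatase that acts on p38, JNK and ERK and is induced within minutes by growth factors and stress, was higher than DMSO under every treatment. Over the dose series its signals on arrays 1 to 3 were 11.03, 11.17 and 11.18 in DMSO, 11.72, 11.86 and 11.94 at 10 nM AG014699, and 11.98, 11.82 and 12.02 at 100 nM. The combination arrays read 12.32, 12.32 and 12.37, against 11.73, 11.54 and 11.69 on the LY294002 arrays. All 12 treated arrays lay above all 3 DMSO arrays, and the combination arrays lay above all others. DUSP1 rose by 0.71 ± 0.11 (SE) at 10 nM (adjusted p = 0.00228), by 0.81 ± 0.11 at 100 nM (adjusted p = 0.000149) and by 1.21 ± 0.11 in the combination (adjusted p = 3.56e-06), each against DMSO. These are 1.64-fold, 1.75-fold and 2.31-fold.

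DUSP1 was the only one of the 9 genes called with LY294002 alone, with a rise of 0.53 ± 0.11 (adjusted p = 0.038). That call was lost when any 1 DMSO or LY294002 array was left out (adjusted p up to 0.136), and when only these 2 groups were fitted (adjusted p = 0.215); it was also lost without any 1 combination array or without 10 nM array 2. The doses did not separate: 100 nM exceeded 10 nM by 0.10 with a 95% interval of -0.14 to 0.34. The combination exceeded 100 nM AG014699 by 0.40 (95% interval 0.16 to 0.64, adjusted p = 0.155) with no overlap of the arrays, and it exceeded LY294002 by 0.68 ± 0.11 (adjusted p = 0.000771). In the order of levels, combination, 100 nM, 10 nM, LY294002 and DMSO, the only neighbours that differed by the test were LY294002 and DMSO. Without the 5 arrays numbered 1, a set chosen after the values were seen, the adjusted p of the rise at 10 nM was 0.0576.

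DUSP5 (chromosome 10, 110497907 to 110511533), a nuclear phosphatase specific for ERK, had the largest difference between the 2 doses among the 9 genes. Its signals were 9.68, 9.79 and 9.85 in DMSO, 10.04, 10.29 and 10.15 at 10 nM AG014699, and 11.24, 10.72 and 11.16 at 100 nM. The combination arrays read 10.92, 10.92 and 11.03, against 9.83, 9.91 and 9.74 with LY294002. The 6 arrays with 100 nM AG014699, with or without LY294002, lay above the other 9, and the LY294002 and DMSO arrays overlapped. Against DMSO the gene rose by 1.27 ± 0.14 at 100 nM (2.41-fold, adjusted p = 1.52e-05) and by 1.18 ± 0.14 in the combination (2.27-fold, adjusted p = 3.11e-05). At 10 nM the difference was 0.38 ± 0.14 and did not pass (adjusted p = 0.224), although the 10 nM arrays did not overlap DMSO.

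At 100 nM against 10 nM AG014699 DUSP5 rose by 0.88 ± 0.14 (1.84-fold, adjusted p = 0.00105), and it was the 1 of 9 genes that rose between the doses, with 0 lower, where 9.58% of all genes were called. The unadjusted p was under 0.05 for 4 of the 9 genes in that comparison and for 3015 of all 12302 genes. Groups did not overlap for 3 of 9, against 28.5% of all genes. LY294002 differed from DMSO by 0.05 (95% interval -0.24 to 0.35), and the combination from 100 nM AG014699 by -0.08 (95% interval -0.38 to 0.21). In the order of levels the step from the combination down to 10 nM was called (0.80 ± 0.14, adjusted p = 0.00175, in a comparison that called 4 of the 9 and 11.4% of all genes), and the steps between 100 nM and the combination, 10 nM and LY294002, and LY294002 and DMSO were not. The calls of DUSP5 against DMSO, between the doses and in the combination against LY294002 held in all 27 alternative settings.

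DUSP6 (chromosome 12, 89347235 to 89352501), a cytoplasmic phosphatase specific for ERK, is among the most direct transcriptional readouts of ERK activity. In the main fit it had the largest change of the 9 genes at 10 nM, at 100 nM and in the combination. The signals on its dim probe were 6.27, 6.52 and 6.49 in DMSO, 6.97, 7.53 and 7.66 at 10 nM, and 7.62, 7.93 and 8.26 at 100 nM. On the combination arrays they were 8.01, 8.47 and 8.30, against 6.45, 6.64 and 7.05 with LY294002. Every AG014699 array but one lay above every array without AG014699; the exception was array 1 at 10 nM, which stood below array 3 of LY294002. In each of the 5 groups array 1 was the lowest.

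Against DMSO, DUSP6 rose by 0.96 ± 0.21 at 10 nM (1.95-fold, adjusted p = 0.0283), by 1.51 ± 0.21 at 100 nM (2.85-fold, adjusted p = 0.000162) and by 1.83 ± 0.21 in the combination (3.57-fold, adjusted p = 2.88e-05). The call at 10 nM was lost when DMSO array 1, 2 or 3 or 10 nM array 2 or 3 was left out, with adjusted p-values up to 0.123. Deposited intensities of this probe ran from 166 to 443, where the array medians were 114 to 115, so its fold depends on the background taken off. With quantile normalization and no background correction the change was 0.56 at 10 nM, 0.94 at 100 nM and 1.18 in the combination, each still called. The increase from 10 to 100 nM was 0.55 ± 0.21 (adjusted p = 0.124), and the arrays of the 2 doses overlapped. LY294002 differed from DMSO by 0.28 (95% interval -0.17 to 0.74), and the combination from 100 nM by 0.33 (95% interval -0.13 to 0.78).

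DUSP10 (chromosome 1, 221701424 to 221742089), a phosphatase that prefers JNK and p38 to ERK, was close to background. Its probe was detected on all 3 arrays of the combination and of 100 nM AG014699 and on 1 of 3 arrays in each other group, 9 of 15 in all. The signals were 5.84, 5.03 and 5.10 in DMSO, 5.02, 5.23 and 5.10 at 10 nM, and 5.77, 5.71 and 5.46 at 100 nM. They were 5.33, 5.20 and 5.21 in the combination, against 4.88, 5.12 and 5.07 with LY294002. DMSO array 1 exceeded every other array, and the remaining DMSO arrays were below the 100 nM arrays.

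At 100 nM against DMSO the change of DUSP10 was 0.32 ± 0.18 (adjusted p = 0.225), and without DMSO array 1 it was 0.58 ± 0.14 and passed (adjusted p = 0.0115). The 100 nM arrays did not overlap the 10 nM arrays (difference 0.53 ± 0.18, adjusted p = 0.0801), and without DMSO array 1 in the fit that difference passed too (adjusted p = 0.0187). At 100 nM AG014699 against LY294002 DUSP10 was called higher, by 0.62 ± 0.18 (adjusted p = 0.0215), and the arrays did not overlap. That comparison called 5 of the 9 genes and 24.3% of all genes, and it was not run under the alternative settings. Both DUSP10 and DUSP1 had groups that did not overlap between the combination and 100 nM AG014699, in opposite directions. DUSP10 was lower in the combination by 0.40 log2 units on the fitted scale (difference -0.40 ± 0.18, adjusted p = 0.401) while DUSP1 was higher, and neither passed; 17.6% of all genes had groups that did not overlap in this comparison.

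**Figure D2:**
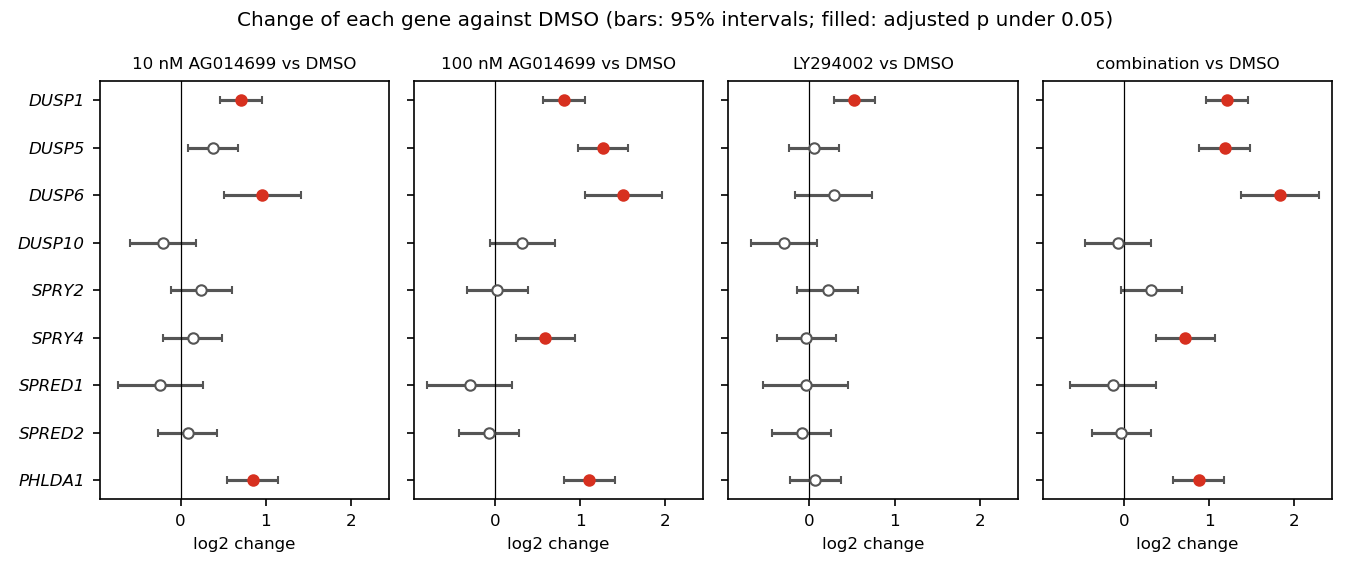
Log2 change (x axis) of each measured gene (rows) at 10 nM and 100 nM AG014699, with LY294002 and in the combination, each against DMSO; bars are 95% intervals and filled points passed an adjusted p of 0.05. Filled points are 3, 5, 1 and 5 in the 4 panels from left to right, all to the right of 0.

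SPRY2 and SPRY4 encode Sprouty proteins, which are recruited after receptor activation and restrain signalling between the receptor and RAF. Of the pair only SPRY4 passed a test. SPRY4 (chromosome 5, 142310430 to 142325021) read 8.20, 8.50 and 8.07 in DMSO, 8.38, 8.40 and 8.41 at 10 nM AG014699, and 8.88, 8.86 and 8.80 at 100 nM on its brighter probe. In the combination it read 9.16, 9.02 and 8.75, against 8.57, 8.09 and 7.98 with LY294002. All 6 arrays with 100 nM AG014699 lay above the other 9, and the 10 nM arrays lay inside the DMSO range. SPRY4 rose by 0.59 ± 0.16 at 100 nM (1.51-fold, adjusted p = 0.0177) and by 0.72 ± 0.16 in the combination (1.65-fold, adjusted p = 0.0059), each against DMSO.

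The difference of SPRY4 from DMSO was 0.14 ± 0.16 at 10 nM (adjusted p = 0.811) and -0.04 with LY294002 (95% interval -0.39 to 0.31). Between 100 nM and 10 nM it was 0.45 ± 0.16 (adjusted p = 0.0992) with no overlap of arrays. The rise at 100 nM did not pass without DMSO array 1 (adjusted p = 0.0529), without DMSO array 3 (adjusted p = 0.0776) or without the 5 arrays numbered 1 (adjusted p = 0.0626); without those 5 the rise in the combination had an adjusted p of 0.0524. The dimmer probe of SPRY4 read 5.57, 5.64 and 5.33 in DMSO, 5.39, 6.06 and 5.49 at 10 nM, and 6.52, 6.17 and 5.79 at 100 nM. It read 6.10, 6.28 and 5.84 in the combination, against 5.09, 5.51 and 4.68 with LY294002, where 1 of 3 arrays was detected. Its change at 100 nM against DMSO, 0.65 ± 0.24, was close to that of the brighter probe but did not pass over all probes (adjusted p = 0.0871). In the combination against DMSO the dimmer probe changed by 0.56 ± 0.24 and did not pass either (adjusted p = 0.148).

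SPRY2 (chromosome 13, 80335976 to 80341126) passed in none of the comparisons. Its signals were 9.47, 9.63 and 9.83 in DMSO, 9.83, 9.91 and 9.93 at 10 nM, and 9.70, 9.37 and 9.94 at 100 nM. The combination arrays read 9.72, 10.00 and 10.17, against 9.64, 10.03 and 9.91 with LY294002. The ranges overlapped in every pair of groups. The difference at 100 nM was 0.03 with a 95% interval of -0.33 to 0.38, and in the combination 0.32 with an interval of -0.04 to 0.68, each against DMSO.

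SPRED1 (chromosome 15, 38252836 to 38357249) and SPRED2 (chromosome 2, 65307175 to 65432599), relatives of Sprouty that hold RAS in check together with neurofibromin, did not pass in any comparison. SPRED1 ranged from 10.05 to 10.78 in DMSO, from 10.03 to 10.47 at 10 nM and from 9.99 to 10.70 at 100 nM. In the combination it ranged from 10.14 to 10.54, against 10.20 to 10.69 with LY294002. SPRED2 ranged from 7.76 to 8.08 in DMSO, from 7.77 to 8.28 at 10 nM and from 7.53 to 8.11 at 100 nM, and from 7.89 to 7.95 in the combination, against 7.79 to 7.92 with LY294002. Both genes overlapped between the groups throughout against DMSO.

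The change at 100 nM against DMSO was -0.30 ± 0.23 for SPRED1 (95% interval -0.80 to 0.21) and -0.07 ± 0.16 for SPRED2 (95% interval -0.42 to 0.28). These upper bounds are below the fitted rise of every member that passed at 100 nM. The 95% interval of SPRY4, 0.24 to 0.94, still overlaps that of SPRED2, and no test compared the genes with each other. In SPRED1, as in DUSP6, array 1 was the lowest of its group in all 5 groups, and the spread of SPRED1 was the widest among the 9 genes (SE 0.23).

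PHLDA1 (chromosome 12, 76025447 to 76031776), a pleckstrin homology domain protein linked to growth factor signalling and stress, followed the AG014699 series and not LY294002. On its brighter probe the signals were 10.89, 10.74 and 10.55 in DMSO, 11.70, 11.60 and 11.41 at 10 nM, and 12.04, 11.87 and 11.59 at 100 nM. In the combination they were 11.54, 11.60 and 11.68, against 10.88, 10.81 and 10.69 with LY294002. The 9 arrays with AG014699 lay above the 6 without it, and the LY294002 arrays lay inside the DMSO range. PHLDA1 rose by 0.85 ± 0.14 at 10 nM (1.80-fold, adjusted p = 0.0031), by 1.11 ± 0.14 at 100 nM (2.15-fold, adjusted p = 5.98e-05) and by 0.88 ± 0.14 in the combination (1.84-fold, adjusted p = 0.000451), each against DMSO. With LY294002 the difference was 0.07 (95% interval -0.23 to 0.37).

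The 2 doses of AG014699 differed by 0.26 ± 0.14 in PHLDA1 (adjusted p = 0.277), and the combination differed from 100 nM by -0.22 (95% interval -0.52 to 0.07). The step in the order of levels that was called was between 10 nM AG014699 and LY294002 (0.78 ± 0.14, adjusted p = 0.00312), in a comparison that called 1 of the 9 and 7.52% of all genes. The dimmer probe read 7.04, 7.28 and 7.36 in DMSO, 7.79, 8.36 and 7.94 at 10 nM, and 8.31, 8.22 and 8.33 at 100 nM. It read 8.002, 8.08 and 8.31 in the combination, against 7.14, 7.49 and 7.21 with LY294002. Both probes were called higher in the same comparisons, with 0.80 and 0.85 at 10 nM and 1.06 and 1.11 at 100 nM for the dimmer and the brighter probe. The calls of PHLDA1 against DMSO and in the combination against LY294002 held in all 27 alternative settings; the comparison of 10 nM AG014699 with LY294002 was not run under them.

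**Figure D3:**
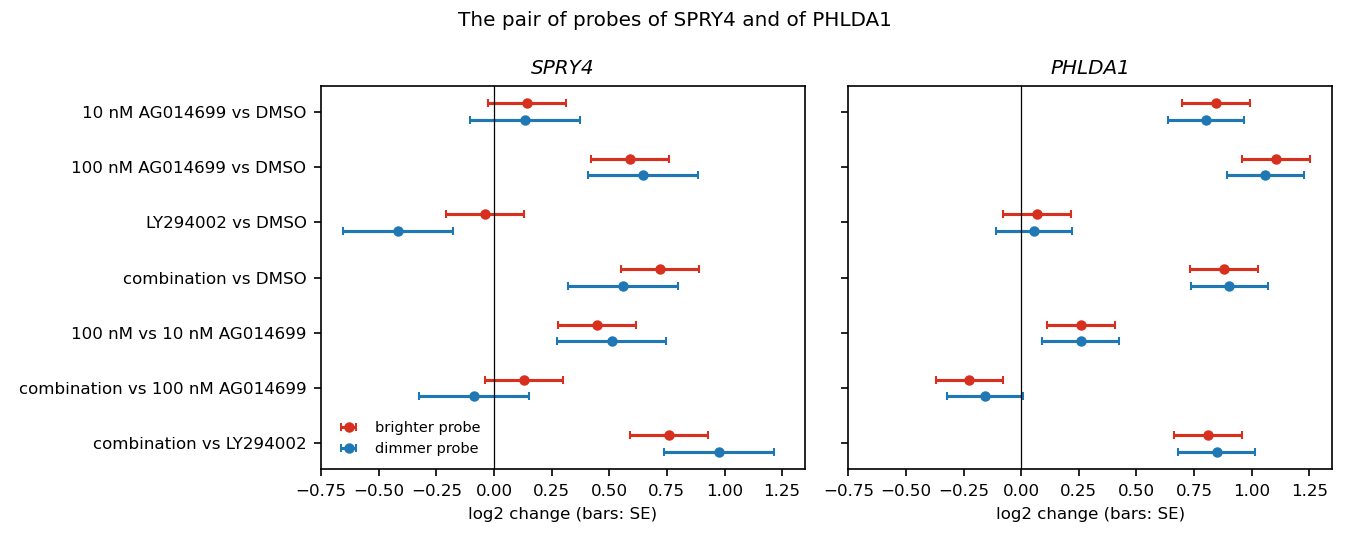
Log2 change (x axis, bars are SE) on the brighter and the dimmer probe of SPRY4 and of PHLDA1 in each comparison (rows). The PHLDA1 probes differ by little in every row, and the SPRY4 probes lie furthest apart with LY294002, where the dimmer probe was detected on 1 of 3 arrays.

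LY294002 was examined on top of 100 nM AG014699, and only the interaction tested whether it changed the response to AG014699. The combination against 100 nM AG014699 called 0 of the 9 genes, where limma called 0.333% of all genes. In that comparison 2 of the 9 (DUSP1 and DUSP10) had an unadjusted p under 0.05, as did 1486 of all 12302 genes. The median change was 0.13 over the 9 and 0.01 over all genes. The interaction compares the effect of LY294002 in the presence of 100 nM AG014699 with its effect in the absence of it; it called 0 of the 9 and had 0 with an unadjusted p under 0.05, where 0.00813% of all genes were called in limma. The interaction was 0.04 ± 0.30 for DUSP6 (95% interval -0.60 to 0.69), -0.13 ± 0.16 for DUSP1 (95% interval -0.47 to 0.22) and -0.29 ± 0.20 for PHLDA1 (95% interval -0.72 to 0.13).

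The combination against LY294002, which adds AG014699 to cells that have the PI3K inhibitor in both groups, called 5 of the 9 genes higher and 0 lower, against 18.3% of all genes. DUSP6 rose by 1.55 ± 0.21 (adjusted p = 0.00016), DUSP5 by 1.13 ± 0.14 (adjusted p = 5.64e-05) and PHLDA1 by 0.81 ± 0.14 (adjusted p = 0.001). SPRY4 rose by 0.76 ± 0.16 (adjusted p = 0.00467), and its dimmer probe by 0.98 ± 0.24 (adjusted p = 0.0149 over probes). DUSP10 differed by 0.23 ± 0.18 with arrays that did not overlap (adjusted p = 0.429), one of 6 genes in which they did not; 35.7% of all genes had groups that did not overlap here. This comparison shares no arrays with 100 nM AG014699 against DMSO.

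**Figure D4:**
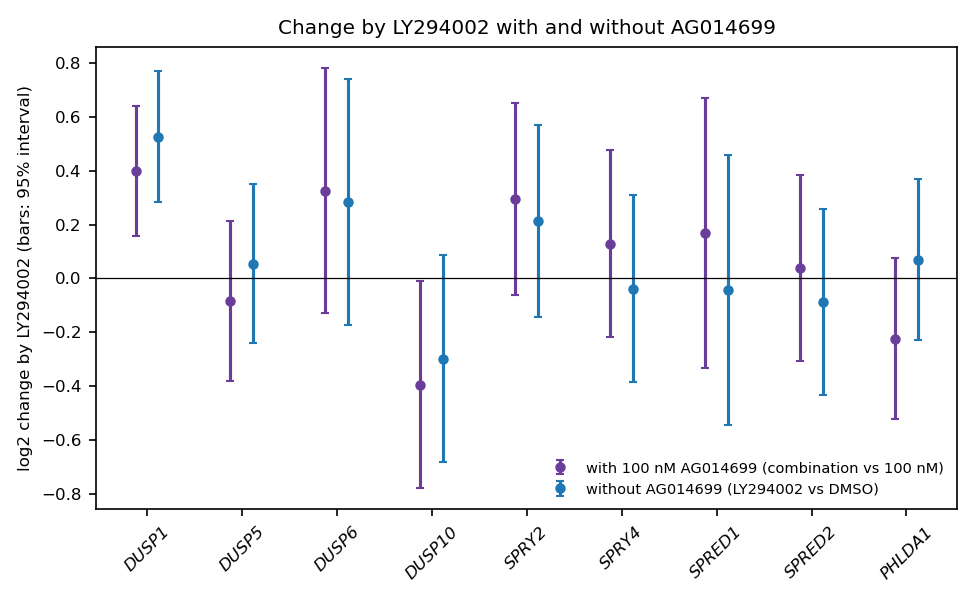
Log2 change by LY294002 (y axis, bars are 95% intervals) for each measured gene (x axis), in the presence of 100 nM AG014699 (left point) and without AG014699 (right point). The paired intervals overlap for all 9 genes, and the left interval of DUSP1 and that of DUSP10 leave out 0 on opposite sides, as does the right interval of DUSP1 above 0; the intervals are not adjusted for the number of genes.

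Between the members, signals over the 15 arrays correlated with Pearson's r of 0.895 for DUSP1 and DUSP6, 0.888 for DUSP5 and DUSP6, 0.844 for DUSP5 and SPRY4, and 0.827 for DUSP5 and PHLDA1. All 10 pairs among DUSP1, DUSP5, DUSP6, SPRY4 and PHLDA1 lay between 0.724 and 0.895. The points share the same arrays and treatment groups, so these values describe a common pattern and carry no test. SPRED1, which passed in no comparison, had an r of -0.526 with PHLDA1.

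The genes most alike in pattern were found by the same correlation among all genes tested. For DUSP6 they were PPP2R2B (0.971), a subunit of protein phosphatase 2A, CTHRC1 (0.957) and BTG1 (0.954), an antiproliferative gene. BTG1 was also nearest to DUSP1 (0.945), before SPIRE1 (0.935) and SNHG12 (0.930). DUSP5 lay closest to SNORD3A (0.980), the U3 small nucleolar RNA, to DEFB103A (0.979), a defensin, and to HSPBAP1 (0.972). SPRY4 lay closest to KLF10 (0.946), a zinc finger factor, then CSRNP2 (0.936) and CABYR (0.927). PHLDA1 was nearest to PVT1 (0.958), a long noncoding RNA beside MYC, SEC11C (0.958) and RRAGD (0.957). For DUSP10 the values were lower, with CCDC51 at 0.812, H3C15 at 0.800 and DGUOK at 0.795.

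Some RNAs that normally lack a poly(A) tail were called higher in the groups given AG014699. Of 178 such RNAs, picked by name after the values were seen, 9 were higher and 0 lower at 10 nM AG014699, 46 and 0 at 100 nM, 0 and 0 with LY294002, and 46 and 0 in the combination, each against DMSO. Of all genes, 1.74%, 10.7%, 0.512% and 10.4% were called higher in these comparisons. The median changes of the 178 RNAs were 0.20, 0.27, -0.07 and 0.26 in the same order. The combination against LY294002 had 52 higher and 0 lower with a median of 0.36, where 18.3% of all genes were called in either direction. At 100 nM against 10 nM AG014699, 23 were higher and 2 lower, where 9.58% of all genes were called in either direction. With LY294002 against DMSO, where limma called 0 of the 178, 18 had an unadjusted p under 0.05, as did 1654 of all 12302 genes. The part of these 178 RNAs in the changes of the feedback genes was not tested.

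Other genes of the pathway were read from lists chosen with earlier results of these data known. Of 5 other MAPK phosphatases 4 were measured (DUSP2, DUSP7, DUSP8 and DUSP16), and limma called 0 of 4 in each of the 8 comparisons. At an unadjusted p under 0.05 the count was 1 of 4 in the combination against DMSO and 1 of 4 in the interaction, and 0 in the other 6. Of all 12302 genes, 4031 were under 0.05 in that combination comparison and 889 in the interaction. Of 11 kinases and GTPases of the ERK cascade 5 were measured (HRAS, ARAF, MAP2K1, MAP2K2 and MAPK3), with 0 called in all 8. Their unadjusted p was under 0.05 for 1 of 5 at 100 nM, 1 of 5 in the combination against DMSO, and 1 of 5 in the combination against LY294002. Of all 12302 genes, 4214, 4031 and 3848 were under 0.05 in the same order. MAPK3, which encodes ERK1, had -0.36 ± 0.15 at 100 nM (adjusted p = 0.0927).

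Of 11 genes of the JNK and p38 cascades 8 were measured, and 1 fell and 0 rose at 100 nM and in the combination against DMSO. Of all genes, 21.5% and 19.9% were called in these comparisons. MAPK8, which encodes JNK1, fell by 0.65 log2 units at 100 nM (log2 change -0.65 ± 0.18, adjusted p = 0.0175), and as the mean of its probes it did not pass (-0.26, adjusted p = 0.195), nor without 100 nM array 3 or DMSO array 2 (adjusted p up to 0.0851). MAPK12, which encodes p38 gamma, fell by 0.94 in the combination (log2 change -0.94 ± 0.21, adjusted p = 0.00626). Of 11 RAS regulators and receptor feedback genes 8 were measured. At 100 nM 1 fell and 0 rose, and in the combination 1 fell and 1 rose, each against DMSO. PTPN11, which encodes the phosphatase SHP2 that acts between receptors and RAS, fell by 0.62 at 100 nM (log2 change -0.62 ± 0.17, adjusted p = 0.0188) and by 0.61 in the combination (log2 change -0.61 ± 0.17, adjusted p = 0.0215), each against DMSO. The call at 100 nM was lost without 100 nM array 1 or 2 or DMSO array 2 or 3 (adjusted p up to 0.0821), and that in the combination without combination array 1 or 2 or DMSO array 2 or 3 (adjusted p up to 0.0843). EGFR rose by 0.40 ± 0.11 in the combination (adjusted p = 0.0172), and as the mean of its probes it did not pass (0.19, adjusted p = 0.417), nor without combination array 1 or 3 or DMSO array 3 (adjusted p up to 0.0701).

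A further list held genes known to respond to ERK. Of 13 listed transcription factors and targets 12 were measured, and 4 rose and 0 fell at 10 nM, 5 rose and 0 fell at 100 nM, 1 rose and 1 fell with LY294002, and 5 rose and 1 fell in the combination, each against DMSO. Of all genes, 2.37%, 21.5%, 1.12% and 19.9% were called in these comparisons. The median changes of the 12 genes were 0.43, 0.48, 0.10 and 0.15. ETV4, ETV5, CCND1, EPHA2 and EPHA4 of this list were called in none of these comparisons. Mean signals at 100 nM AG014699 and in DMSO were 9.45 and 9.59 for ETV5, 10.61 and 10.82 for CCND1, and 5.53 and 5.75 for EPHA4. The means went the other way for ETV4, at 7.18 and 6.69, and for EPHA2, at 8.002 and 7.54. EGR1, an immediate early zinc finger factor, read 8.78, 8.67 and 8.48 in DMSO, 10.22, 10.30 and 10.01 at 10 nM, and 10.49, 10.88 and 10.61 at 100 nM. It read 11.32, 11.22 and 11.002 in the combination, against 9.15, 9.17 and 9.29 with LY294002. No 2 of the 5 groups overlapped.

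EGR1 rose by 1.53 ± 0.14 at 10 nM (adjusted p = 1.1e-05), by 2.02 ± 0.14 at 100 nM (adjusted p = 1.58e-07) and by 2.54 ± 0.14 in the combination (adjusted p = 1.41e-08), each against DMSO. MAFF, a small basic leucine zipper factor, rose by 1.24 ± 0.19 at 100 nM and by 1.29 ± 0.19 in the combination (adjusted p = 0.000271 and 0.000196). FOSL1, an AP-1 subunit stabilised by ERK, rose by 1.19 ± 0.18 and by 0.96 ± 0.18 in those comparisons (adjusted p = 0.000244 and 0.00139). TRIB1, a pseudokinase that binds MEK1, rose by 0.80 ± 0.13 at 10 nM, 0.75 ± 0.13 at 100 nM and 0.70 ± 0.13 in the combination. IER3 rose by 0.52 ± 0.11 at 10 nM (adjusted p = 0.0202), a call lost without any one of the 10 nM arrays (adjusted p up to 0.105).

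LIF, a cytokine of the interleukin-6 family, did not follow the feedback genes under LY294002. Its signals were 6.76, 7.09 and 6.83 in DMSO, 7.72, 7.77 and 7.96 at 10 nM, and 7.44, 7.47 and 7.38 at 100 nM. They were 6.38, 6.35 and 6.66 in the combination, against 6.10, 6.15 and 6.35 with LY294002. All AG014699 arrays without LY294002 were above DMSO, and all arrays with LY294002 were below it. LIF rose by 0.92 ± 0.13 at 10 nM (adjusted p = 0.000869) and fell by 0.97 in the combination against 100 nM AG014699 (log2 change -0.97 ± 0.13, adjusted p = 0.00343), where DUSP1, DUSP5, DUSP6, SPRY4 and PHLDA1 did not pass; fitted on these 2 groups only, the fall of LIF had an adjusted p of 0.0672. With LY294002 alone LIF fell by 0.69 (log2 change -0.69 ± 0.13, adjusted p = 0.0177) and MYC rose by 0.56 ± 0.11 (adjusted p = 0.0162), and both calls were lost without DMSO array 2 or 3 (adjusted p up to 0.103 for LIF). The fall of LIF in the combination against DMSO, 0.43 in size (log2 change -0.43 ± 0.13, adjusted p = 0.0333), was lost in 11 of 27 alternative settings. It was -0.23 with quantile normalization and no background correction (adjusted p = 0.0839), and leaving out single arrays gave adjusted p-values up to 0.139. With LY294002 against DMSO the call of LIF was lost in 6 of 27 settings and that of MYC in 8 of 27 (adjusted p up to 0.219 for MYC).

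SPRY1, another Sprouty gene outside the 10, ran against SPRY4. Of 5 other Sprouty, SPRED and PHLDA genes it was 1 of 2 measured, with PHLDA2. Its signals were 6.85, 6.70 and 6.75 in DMSO, 6.08, 6.49 and 6.42 at 10 nM, and 5.57, 6.08 and 5.05 at 100 nM, where 1 of 3 arrays was not detected. They were 5.89, 5.67 and 5.75 in the combination, against 7.83, 7.93 and 7.71 with LY294002. The LY294002 arrays lay above all others and the arrays with 100 nM AG014699 below DMSO, so no group of SPRY1 that had 100 nM AG014699 overlapped DMSO or LY294002.

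SPRY1 rose by 1.06 ± 0.20 with LY294002 (adjusted p = 0.0166) and fell by 1.20 at 100 nM AG014699 (log2 change -1.20 ± 0.20, adjusted p = 0.000628) and by 0.998 in the combination (log2 change -0.998 ± 0.20, adjusted p = 0.00269), each against DMSO. In the combination against LY294002 it fell by 2.06 (log2 change -2.06 ± 0.20, adjusted p = 6.69e-06), where SPRY4 rose. Its rise with LY294002 did not pass without LY294002 array 1 or 2 or DMSO array 2 or 3 (adjusted p up to 0.0843), nor without the 5 arrays numbered 1 (adjusted p = 0.217). With quantile normalization and no background correction the log2 changes of SPRY1 were smaller, at 0.67 with LY294002, -0.53 at 100 nM AG014699 and -0.46 in the combination, each against DMSO, and -1.14 in the combination against LY294002, all still called.

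**Figure D5:**
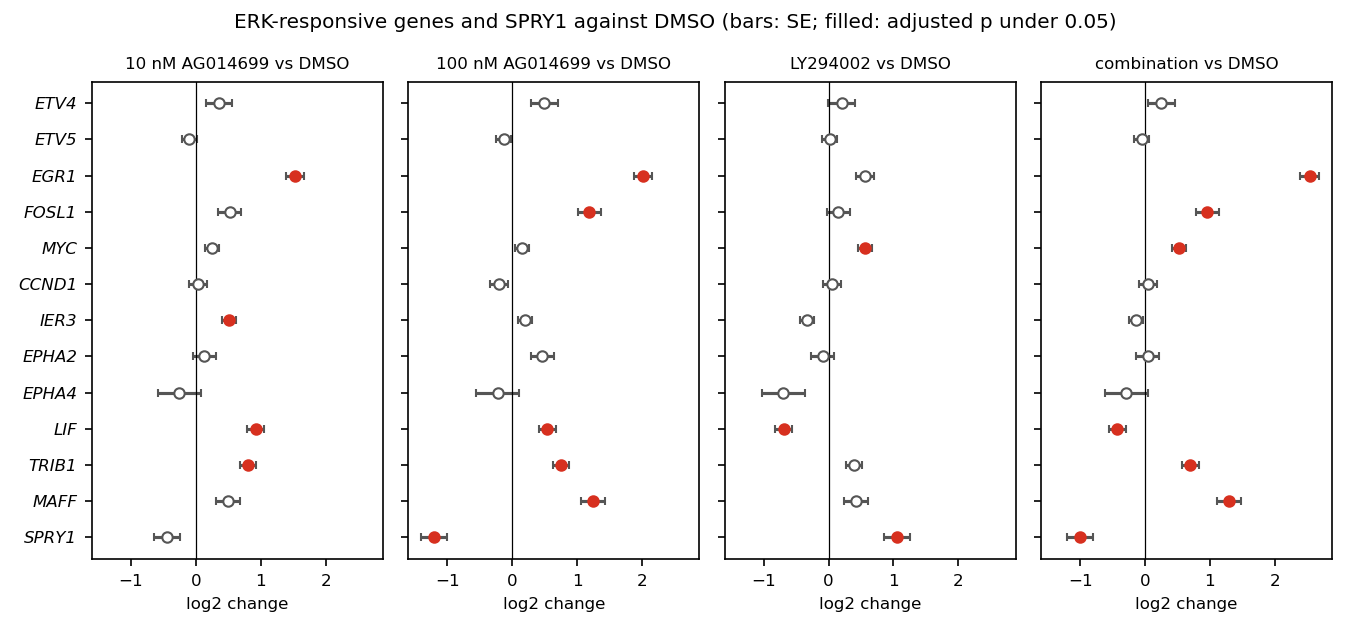
Log2 change (x axis, bars are SE) of the 12 measured ERK-responsive genes and of SPRY1 (rows) under each treatment against DMSO; filled points passed an adjusted p of 0.05. EGR1, TRIB1 and LIF are filled to the right of 0 at both AG014699 doses, LIF lies left of 0 wherever LY294002 was given, and SPRY1 lies left of 0 with AG014699 and right of 0 with LY294002 alone.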

How the data were processed

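Per the file headers, the signal table deposited by the authors pairs an intensity with a detection p-value, for 48107 probes and 15 arrays. Per the labels, RNA was purified with a Qiagen kit and biotin-labelled with an Ambion MessageAmp kit. The deposited intensity values had medians of 114 to 115 on every array, so they had been matched between arrays before deposit, by a method not given in the sources used here. Array 1 of 100 nM AG014699 holds whole numbers only and was used like the others. A second table deposited by the authors holds log2 values centred per probe, and it served as an alternative. The detection p-value was used as deposited, and its formula is not given in the sources used here.

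Intensities were background corrected, quantile normalized and log2 transformed with neqc (offset 16) in limma 3.58.1 under R 4.3.3. 2 probes with missing signals were dropped. Probes with a detection p under 0.05 on at least 3 arrays were kept (23680), and the brightest probe stood for each of 12302 genes. Between 18971 and 20808 probes were detected per array. Groups came from the treatment in the labels. The 5 group means were estimated from all 15 arrays together with lmFit and eBayes, and the Benjamini-Hochberg adjustment ran over all genes of a comparison. Every member is named whether or not it passed; from each pathway list, up to 4 called genes per comparison were named by size of change; for likeness, the 3 genes with the highest correlation were taken for members called at least once. The members and lists were chosen with earlier results of these data known. The TATA box and GC box were added after the first motif search. Probe positions on the genome were not used here; gene positions and promoters are from RefSeq. The fit was tested on simulated data. Alternatives changed the background correction, normalization, filter, choice of probe, arrays, groups in the fit, weights, variance model and replicate block.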

Additional observations from a re-analysis of the deposited data

How the results depend on the processing

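Over 27 alternative settings of the 8 main comparisons the 9 measured genes gave 0 reversals of a called change, and 15 of the 20 calls in these comparisons held in every setting. The comparisons of 10 nM and of 100 nM AG014699 with LY294002 and of the combination with 10 nM were not run under them. The count called with LY294002 against DMSO, 1, was 0 with every probe on its own, with only the groups compared and without the 5 arrays numbered 1 together (chosen after seeing the data), and 0 to 1 when single arrays were left out; that 1 gene is DUSP1. The count called at 100 nM against 10 nM AG014699, 1, was 2 with quantile normalization and no background correction and with the authors' value table, where SPRY4 was added. It was 1 to 2 when single arrays were left out. Leaving out single arrays gave 2 to 3 called at 10 nM and 4 to 5 at 100 nM against DMSO, and 5 throughout in the combination against DMSO and against LY294002. It gave 0 throughout in the combination against 100 nM AG014699 and in the interaction. In fits with the replicate number as a block (replicate block), 2 genes were called at 100 nM against 10 nM, DUSP6 being added (0.55, adjusted p = 0.0199), and no other count of called feedback genes changed. Arrays of the same number correlated in their deviations from the group means with r of -0.07 to 0.32 over 30 pairs (median 0.16, 21 over 0.1). Arrays of different numbers had a median of -0.09 over 60 pairs (4 over 0.1), and 13 of 15 arrays correlated best with their own number. The data thus hint at variation shared by number. The labels do not say what the numbers mark, and the main fit leaves them out. With the block, limma called 340 genes at 10 nM, 3075 at 100 nM, 187 with LY294002 and 2835 in the combination against DMSO, against 292, 2648, 138 and 2453 without it. Without the 5 arrays numbered 1, limma called 98, 1908, 31 and 1547 genes in these comparisons. DUSP10 was not in the authors' complete values or under the stricter filter. Dim probes limit DUSP10 and the dimmer SPRY4 probe, and the fold of DUSP6 depends on the background correction.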
